A study of Homo sapiens with 12 samples.

Results

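A set of 12 probes was detected in HEK293 cells carrying a Mock construct and largely undetected in HEK293 cells carrying an inducible RPF-1 construct, whether or not tetracycline (Tet) was present. They were picked from 22184 probes of an Illumina bead array by their detection p-value, the scanner software's estimate that a signal comes from background. A member had a detection p under 0.05 on all 6 Mock arrays and of 0.05 or more on at least 5 of the 6 RPF1 arrays. Its mean log2 value in the table processed by the authors was also at least 0.3 higher in Mock. Because these measurements chose the members, the gap between the lines is described below and not tested. Undetected means that the signal could not be told from background, and does not show that a gene is silent.

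HEK293 is a human embryonic kidney cell line. One of its derivatives carried a Mock construct (HEK/Mock) and the other the cDNA of RPF-1 inserted in pTRE2puro (HEK/RPF1), where taking Tet away switches the transcription factor on. Each line was cultured for 48 h with Tet (Tet+) or in Tet-depleted medium (Tet-), giving 4 groups of 3 arrays: Mock Tet+, Mock Tet-, RPF1 Tet+ (uninduced) and RPF1 Tet- (induced). Both lines are stable transfectants, with their clonality not given in the sources used here. Construct and line therefore cannot be told apart in any comparison of RPF1 with Mock. Nothing in the labels says that the 3 replicates of a group were cultured separately, and the spread behind each p-value may be technical. The arrays detected 13568 to 14493 probes each, and arrays of 1 group correlated at 0.993 to 0.997 across probes. They lay on 3 chips: the first held 2 Mock Tet+ arrays, the third 2 RPF1 Tet- arrays, and the second all the others. With the chip as a block, each estimated change therefore rests on the second chip, with only 1 Mock Tet+ and 1 RPF1 Tet- array. A call lost in that fit does not show an effect of the chip. Of 7 HEK293 markers, 6 were detected on all 12 arrays, among them VIM, KRT8 and KRT18, and PAX2 was detected on none.

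The members named by the array annotation have known roles in several unrelated processes. GALC is galactosylceramidase, the lysosomal enzyme that removes galactose from galactosylceramide and psychosine, and its loss causes Krabbe disease. GSPT2 encodes eRF3b, a GTPase that works with the release factor eRF1 when translation ends at a stop codon. MAGEB2, MAGEA3 and PAGE4 are cancer-testis genes of the X chromosome, a group that is normally active in germ cells or placenta, and in some tumours, and is kept silent in most other tissues. DNA methylation at CG dinucleotides of their promoters is the best known means of that silencing. CD6 is a T cell surface receptor, KIRREL1 an adhesion protein of the podocyte slit diaphragm, CNNM1 a member of the cyclin M family of magnesium-handling membrane proteins, and ZNF100 a zinc finger gene. CCDC144BP is a pseudogene of the CCDC144 family. The probes ILMN_1667114 and ILMN_1766925 carry no gene in the annotation given, so 10 of the 12 members have a gene name.

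The promoters of 5 members are shown because their CG dinucleotides are the sites at which cancer-testis genes are usually silenced, and because GALC and GSPT2 had the widest gaps between the lines. Each line gives the 250 bases before the RefSeq transcription start on GRCh38.p14, 5′ to 3′ on the gene's own strand, with CG in capitals. The positions are chr14:87993183-87993432 (minus strand) for GALC, chrX:51743192-51743441 for GSPT2, chrX:30215313-30215562 for MAGEB2, chrX:152698544-152698793 for MAGEA3 and chrX:49829010-49829259 for PAGE4, all on the plus strand unless stated. GALC has 4 listed start sites and PAGE4 has 2, of which the first in the table is shown.
GALC: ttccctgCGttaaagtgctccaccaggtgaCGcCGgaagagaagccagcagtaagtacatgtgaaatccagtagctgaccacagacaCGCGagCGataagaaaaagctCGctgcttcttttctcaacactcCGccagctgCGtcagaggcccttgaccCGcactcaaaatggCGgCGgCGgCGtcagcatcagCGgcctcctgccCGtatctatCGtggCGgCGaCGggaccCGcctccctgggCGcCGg
GSPT2: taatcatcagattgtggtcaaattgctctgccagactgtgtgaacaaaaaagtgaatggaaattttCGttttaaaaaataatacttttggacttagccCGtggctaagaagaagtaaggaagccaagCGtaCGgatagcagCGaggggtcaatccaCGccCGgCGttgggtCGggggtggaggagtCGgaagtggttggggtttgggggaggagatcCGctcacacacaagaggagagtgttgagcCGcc
MAGEB2: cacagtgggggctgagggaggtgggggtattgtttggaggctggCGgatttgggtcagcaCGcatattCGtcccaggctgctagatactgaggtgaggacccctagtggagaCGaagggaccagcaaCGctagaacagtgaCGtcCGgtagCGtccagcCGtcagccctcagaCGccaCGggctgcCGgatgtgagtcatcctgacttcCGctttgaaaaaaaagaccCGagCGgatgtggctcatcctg
MAGEA3: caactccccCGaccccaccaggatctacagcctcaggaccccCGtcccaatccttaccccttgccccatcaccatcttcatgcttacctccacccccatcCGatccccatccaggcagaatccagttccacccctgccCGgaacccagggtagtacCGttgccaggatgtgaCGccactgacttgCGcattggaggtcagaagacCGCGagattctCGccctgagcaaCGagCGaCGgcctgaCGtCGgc
PAGE4: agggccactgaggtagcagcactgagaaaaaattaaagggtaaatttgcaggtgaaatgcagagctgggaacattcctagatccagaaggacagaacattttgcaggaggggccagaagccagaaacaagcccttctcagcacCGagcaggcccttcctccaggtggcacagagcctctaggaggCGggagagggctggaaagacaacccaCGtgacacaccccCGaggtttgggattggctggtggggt

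The letters CG read the same on both strands and were counted once. GALC held 23 of them, MAGEB2, MAGEA3 and CNNM1 held 15 each, GSPT2 held 12, ZNF100 held 8 and PAGE4 held 4, over the 7 members with a RefSeq window. At least 10 were present in 5 of these 7 windows, against 70.5% of the windows of 13410 genes with a probe on the array, whose median was 18. The value for GALC depends on the start site, since its 4 windows held 23, 1, 1 and 41. Both PAGE4 windows held 4. Methylation was not measured in these samples.

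GALC had the widest gap. The authors' processed intensity of GALC was 607, 574 and 568 on the Mock Tet+ arrays and 593, 557 and 573 on the Mock Tet- arrays. On the RPF1 Tet+ arrays it was 152, 158 and 147, and on the RPF1 Tet- arrays 137, 169 and 148. The lowest value of any detected probe lay between 203 and 218 on the 12 arrays, so every RPF1 value of GALC sat below the reach of detection. The means were 579 ± 18.3 (SD, n = 6) in Mock and 152 ± 10.9 (SD, n = 6) in RPF1, a log2 difference of 1.93 in the authors' values. Their scale leaves the array background in, which compresses folds. After background correction, and with the RPF1 signal raised to the lowest measurable level of its array, GALC was at least 6.23-fold higher in Mock with Tet and at least 6.62-fold higher without it. The median detection p over the RPF1 arrays was 0.66, in the middle of the background signals.

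GSPT2 behaved in the same way. Its authors' value was 430, 496 and 419 in Mock Tet+, 461, 395 and 472 in Mock Tet-, 151, 149 and 124 in RPF1 Tet+, and 128, 146 and 155 in RPF1 Tet-. The lowest Mock array stood far above the highest RPF1 array, and no RPF1 array detected the gene. Means were 446 ± 37.3 (SD, n = 6) and 142 ± 12.8 (SD, n = 6), a log2 difference of 1.65, and the background-corrected signal was at least 4.28-fold higher in Mock with Tet and at least 4.55-fold higher without it.

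MAGEB2 gave 517, 477 and 541 in Mock Tet+ and 476, 516 and 521 in Mock Tet-. In RPF1 Tet+ it gave 212, 200 and 202, and in RPF1 Tet- 220, 173 and 180. The RPF1 values of MAGEB2 lay close to the detection level rather than well under it, and RPF1 Tet- replicate 1 was the only RPF1 array to detect it, with a detection p-value of 0.0325. The 2 lines did not overlap: their means were 508 ± 26.3 and 198 ± 18 (SD, n = 6 each), 1.36 apart on the log2 scale, and the bound with Tet was at least 5.20-fold higher in Mock. No bound applies without Tet, since 1 of the 3 arrays measured the gene there.

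The unnamed probe ILMN_1667114 read 333, 291 and 368 in Mock Tet+, 324, 310 and 327 in Mock Tet-, 148, 144 and 162 in RPF1 Tet+, and 128, 152 and 151 in RPF1 Tet-. No RPF1 array detected it, and its log2 difference was 1.14. The other unnamed probe, ILMN_1766925, read 304, 379 and 387 in Mock Tet+, 431, 359 and 330 in Mock Tet-, 220, 179 and 188 in RPF1 Tet+, and 182, 199 and 181 in RPF1 Tet-. Its RPF1 values approached the detection level, RPF1 Tet+ replicate 1 passed it with a detection p-value of 0.0438, and the log2 difference was 0.92. These 5 probes were also the only members whose detection p stayed under 0.01 on all 6 Mock arrays.

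MAGEA3 was the next cancer-testis member. MAGEA3 read 235, 240 and 214 in Mock Tet+, 241, 213 and 235 in Mock Tet-, 172, 167 and 153 in RPF1 Tet+, and 152, 142 and 157 in RPF1 Tet-. The Mock values were only just above the detection level, with a highest detection p of 0.0438, whereas the RPF1 values were clearly below it (log2 difference 0.55). PAGE4, of the PAGE family, had a narrower gap: 225, 236 and 262 in Mock Tet+, 231, 215 and 249 in Mock Tet-, 194, 175 and 193 in RPF1 Tet+, and 197, 209 and 176 in RPF1 Tet-. Its lowest Mock value was only a little above its highest RPF1 value, which itself passed detection with a p-value of 0.0381, and the log2 difference was 0.31.

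The surface and membrane proteins had faint signals in Mock. CD6 ranged from 229 to 284 in Mock and from 157 to 184 in RPF1, with a log2 difference of 0.61. KIRREL1 ranged from 227 to 293 in Mock and from 178 to 200 in RPF1 (0.40), and CNNM1 from 217 to 255 and from 154 to 197 (0.46). None of these 3 was detected on any RPF1 array. ZNF100 ranged from 226 to 265 in Mock and from 181 to 214 in RPF1 (0.30), and CCDC144BP from 228 to 358 and from 179 to 225 (0.49), each with 1 RPF1 array above detection. CCDC144BP has near-identical relatives in the genome, so its probe may read more than 1 of them. A second CCDC144BP probe, the only second probe of any member gene, was detected on 1 Mock array and no RPF1 array, with values of 152 to 222 and a log2 difference of -0.00. It did not show the gap.

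**Figure D1:**
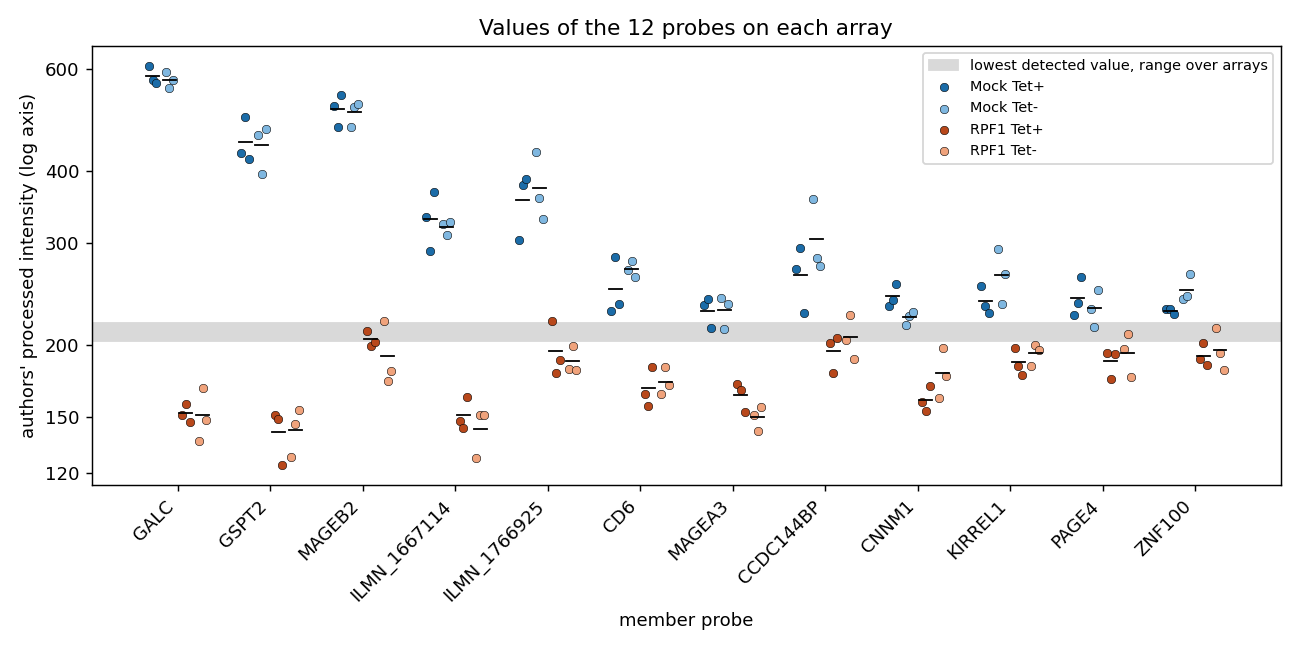
Authors' processed intensity (log axis) of each of the 12 member probes on each of the 12 arrays. Points are arrays coloured by group, short bars are group means of 3 arrays, and the grey band spans the lowest value of a detected probe over the arrays (203 to 218). For GALC, GSPT2 and ILMN_1667114 the RPF1 points lie well under the band, while PAGE4 and ZNF100 lie close to it on both sides.

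All 12 members lay wholly higher in Mock than in RPF1, which their selection favours: 7.73% of the 14752 probes detected on at least 3 arrays did so. On the second chip, which held 4 arrays of each line, the background-corrected log2 gap was 3.55 for GALC, 3.08 for GSPT2 and 2.48 for MAGEB2, and 0.72 for ZNF100, the smallest. The median gap over members was 0.58 in the authors' values and 1.23 after background correction. Only 4 members had an authors' log2 gap of at least 1, a size that 29 of the 14752 probes reached. Of those 29, 19 were detected on all 12 arrays. Just inside the minimum of 0.3 stood KIRREL1 (0.40), PAGE4 (0.31) and ZNF100 (0.30), and just outside it HMX2 (0.27), BDNF (0.26) and B3GALNT1 (0.26). Leaving out 1 array at a time gave 11 to 14 members, and PAGE4 and ZNF100 were the only ones to drop out. The opposite pattern, detected in RPF1 and not in Mock with the same minimum, held for 22 probes of 20 genes.

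The response of the members to Tet removal was tested with limma over all 14752 probes. The rule did not use the size of that response, but asked for the same detection state with and without Tet. Probes that Tet removal carried across detection within a line were thus mostly left out beforehand. In the Mock line 0 of 12 members passed an adjusted p of 0.05 by limma, where 0% of all probes did, and 1 member, CNNM1, had an unadjusted p under 0.05 against 377 of all probes. The Mock log2 change without Tet was -0.03 (95% interval -0.24 to 0.18) for GALC, -0.03 (-0.32 to 0.27) for GSPT2 and -0.03 (-0.39 to 0.33) for MAGEB2. These are the cells in which the members were measured above background, so a change could be measured there. The intervals rest on a spread that may be technical. In addition, 2 Mock Tet+ arrays lay on the first chip and all Mock Tet- arrays on the second. CCDC144BP had the widest interval, -0.11 to 0.97 around 0.43.

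No member passed the test for a change on induction of RPF-1. In the RPF1 line 0 of 12 members passed by limma, against 12.7% of all probes (6.2% higher and 6.52% lower without Tet), and 0 of 12 had an unadjusted p under 0.05. Their log2 changes ran from -0.21 for MAGEB2 to 0.25 for CNNM1, with a median of 0.03, and the lowest adjusted p by limma was 0.247. GALC changed by -0.00 (95% interval -0.21 to 0.21) and GSPT2 by 0.01 (-0.28 to 0.30). These signals were at or near background, so a further fall could hardly have been seen. A rise could be seen only if it carried a gene past detection, and the rule left out most probes with such a rise. The 0 of 12 was therefore largely set by the choice of members, and its distance from the share of all probes is no result. With RPF1 Tet- replicate 1 left out, the array on which it had been detected, MAGEB2 passed as a fall. Its log2 change was then -0.44 (adjusted p = 0.0291 by limma). No RPF1 array left in that fit detected MAGEB2, so this change lies between undetected signals. The RPF1 Tet- arrays that remained lay on the third chip and all RPF1 Tet+ arrays on the second. Tet and chip cannot be told apart in that fit.

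A dependence of the gap on Tet was tested as well, with the same limit, since the rule asked for non-detection in RPF1 across both Tet states. The difference between the Tet effects in RPF1 and Mock passed for 0 of 12 members by limma, against 4.87% of all probes (2.45% higher and 2.42% lower). It was 0.02 (95% interval -0.27 to 0.32) for GALC, 0.04 (-0.38 to 0.45) for GSPT2 and -0.18 (-0.69 to 0.33) for MAGEB2 on the log2 scale. CNNM1 had the largest difference, 0.54 with a standard error of 0.18, and the only unadjusted p under 0.05 (adjusted p = 0.131 by limma). CNNM1 was lower without Tet in Mock (-0.30) and higher in RPF1 (0.25), though neither change passed adjustment.

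**Figure D2:**
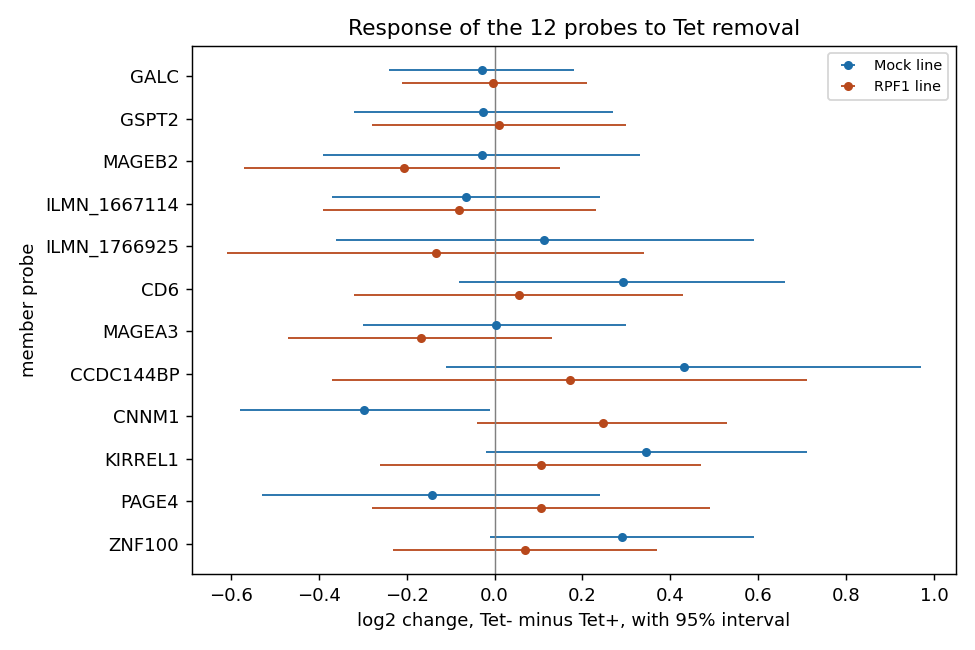
Log2 change without Tet against with Tet for each of the 12 member probes in the Mock line (blue) and the RPF1 line (orange), with 95% intervals from limma, 3 arrays a group. Every interval in the RPF1 line includes 0, and in Mock only that of CNNM1 (-0.58 to -0.01) does not.

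By position, 4 of the 10 member genes (40%) lie on the X chromosome, namely GSPT2, MAGEB2, MAGEA3 and PAGE4, compared with 415 of the 11824 genes with a probe detected on at least 3 arrays (3.51%). The remaining 6 are spread over 6 chromosomes. Of the 411 other X-linked genes, more were called higher than lower in RPF1. By limma 41 rose and 13 fell in RPF1 Tet+ against Mock Tet+, where 7.31% of all probes rose and 7.21% fell (14.5% together). In RPF1 Tet- against Mock Tet-, 72 rose and 46 fell, against 15.2% of all probes in each direction and 30.4% together. Their median log2 change was 0.05 and 0.02.

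The genes next to the members were looked up among measured genes in RefSeq order, 4 on each side. Only the order was used, and distances along the chromosome were not examined. Around GSPT2 none of the 4 testable neighbours passed in either comparison of the lines, and MAGED1, directly beside GSPT2 and detected on all 12 arrays, had mean authors' values of 31345 in Mock and 32905 in RPF1. Around MAGEB2 none of the 3 testable neighbours passed, and MAGEB3 and MAGEB4 beside it were detected on 1 and 0 of the 12 arrays. MAGEB1 in the same cluster was detected on 6 Mock and 5 RPF1 arrays (means 232 and 218). MAGEB6, MAGEB10 and DCAF8L1 were detected on no array, and IL1RAPL1, directly beside MAGEB2 on the other side, was detected on all 12 (means 276 and 255).

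The measured neighbours of GALC gave calls in both directions between the lines. FLRT2, a transmembrane protein of cell adhesion, was the nearest measured gene on the lower-coordinate side. Its mean authors' values were 1037 in Mock and 527 in RPF1. Within the RPF1 line FLRT2 also changed on Tet removal, by -0.57 (adjusted p = 0.0114 by limma, called in 19 of 23 settings). Its change in Mock was -0.005, and the difference between these Tet effects did not pass (adjusted p = 0.101 by limma). FLRT2 was lower in RPF1 by -0.98 with Tet (standard error 0.12, adjusted p = 0.000913 by limma) and by -1.55 without it (standard error 0.12, adjusted p = 1.04e-05), a call kept in all 23 settings tried. Further along the same side, GTF2A1 fell by 0.96 without Tet (adjusted p = 0.00107 by limma) and SEL1L fell by 0.53 (adjusted p = 0.0133, lost on the second chip alone and without Mock Tet- replicate 3). With Tet, GTF2A1 changed by -0.52, called in only 8 of 23 settings, and SEL1L by -0.14 without a call. SPATA7, on the other side, rose by 0.53 without Tet (adjusted p = 0.00643), a call lost with the chip as a block, and PTPN21 passed in neither comparison. STON2, GPR65 and KCNK10 were detected on no array. Around all 10 member genes, 41 of 80 neighbours could be tested. With Tet 6 fell and 2 rose, where 7.21% of all probes fell and 7.31% rose. Without Tet 8 fell and 4 rose, against 15.2% of all probes each way. With the chip as a block the neighbour counts were 1 and 1, then 3 and 0.

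**Figure D3:**
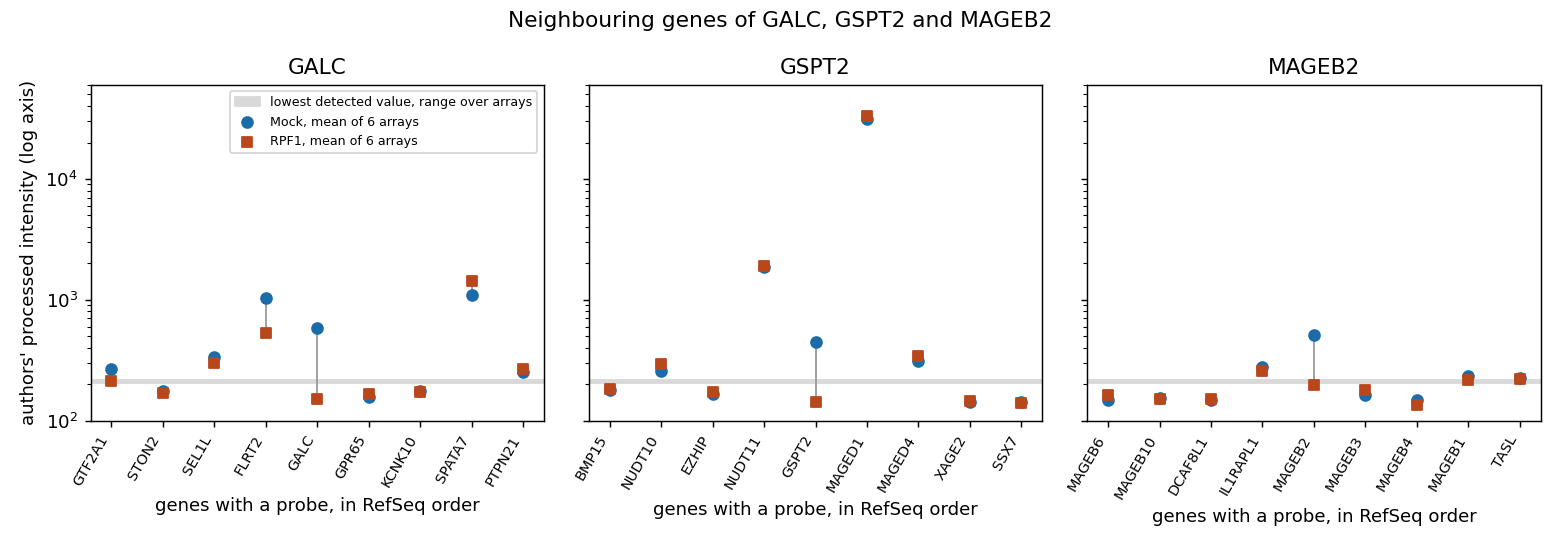
Mean authors' processed intensity (log axis, 6 arrays a line) of GALC, GSPT2 and MAGEB2 and of the 4 measured genes on each side in RefSeq order, in Mock (circles) and RPF1 (squares). The grey band is the range of the lowest detected value; levels of different genes are not comparable. FLRT2 beside GALC is separated between the lines (1037 and 527), while MAGED1 beside GSPT2 is not (31345 and 32905).

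Most relatives of the cancer-testis members were detected in both lines or in neither. The MAGE family, whose proteins bind RING ubiquitin ligases, had 32 measured genes, of which 8 were detected on all 12 arrays and 15 on none. Besides MAGEB2 and MAGEA3, 11 could be tested by limma. Of these 2 rose and 0 fell with Tet, namely MAGED2 (0.42) and MAGEH1 (0.33), and without Tet both rose again while MAGEB18 fell by 0.42. Among all probes 7.31% rose and 7.21% fell with Tet, and 15.2% moved each way without it. The MAGEB18 call was lost without any 1 of the Mock Tet- arrays and without RPF1 Tet- replicate 1 or 3. The calls of MAGED2 and MAGEH1 were lost with the chip as a block. The probe for MAGEA6, whose sequence is nearly that of MAGEA3, was detected on no array, with means of 200 and 176. MAGEA3 and MAGEA6 transcripts are hard to separate by hybridisation, so the MAGEA3 values may hold both.

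**Figure D4:**
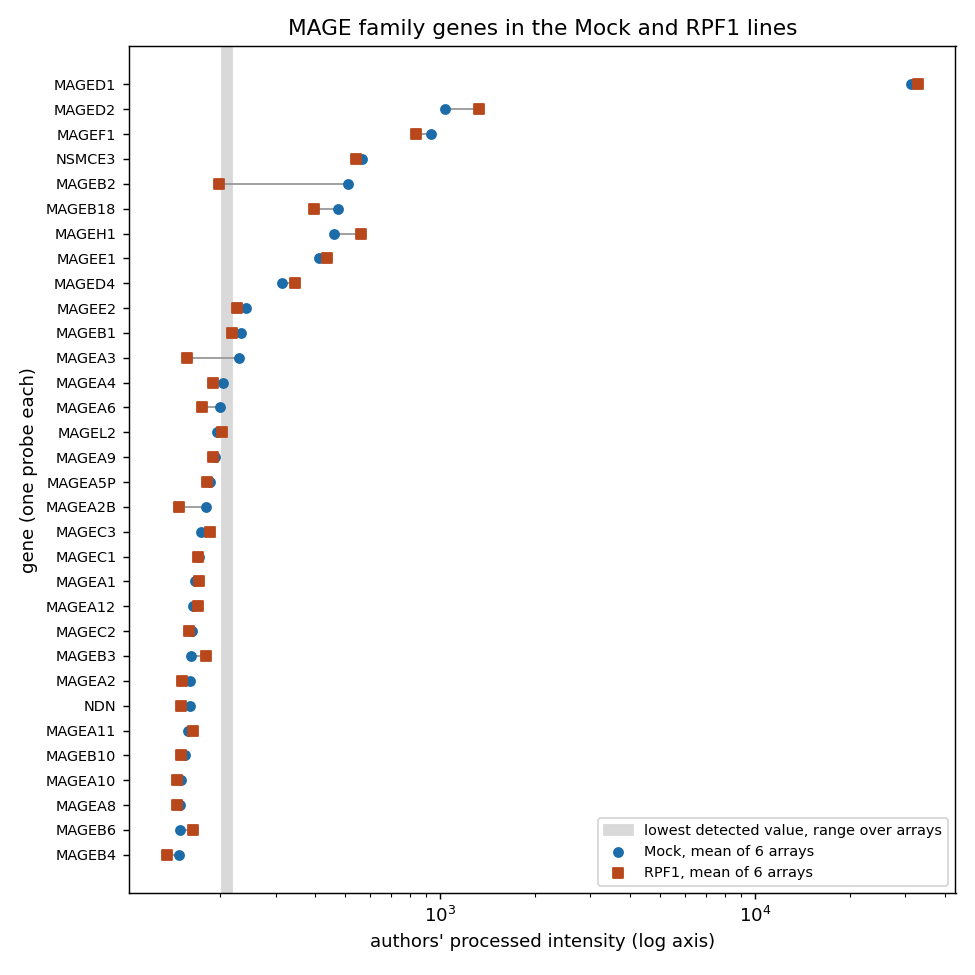
Mean authors' processed intensity (log axis, 6 arrays a line) of 32 MAGE family genes in Mock (circles) and RPF1 (squares), joined by a line for each gene. The grey band is the range of the lowest detected value; levels of different genes are not comparable. MAGEB2 and MAGEA3 cross the band between the lines, and most other genes lie on 1 side of it.

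Of 70 other cancer-testis genes or genes with such names, 37 were detected on no array, and 22 besides PAGE4 could be tested. With Tet, 0 rose and 3 fell in RPF1, where 7.31% of all probes rose and 7.21% fell. Without Tet 4 rose and 4 fell, against 15.2% of all probes each way. SPANXN3, an X-linked sperm protein gene detected on 6 Mock and 3 RPF1 arrays, came closest to the members. SPANXN3 had means of 313 and 197, and fell by 1.90 with Tet (standard error 0.14, adjusted p = 3.14e-05 by limma) and by 1.08 without it (adjusted p = 0.000254). TKTL1, a transketolase-like gene, was detected on no Mock array and 4 RPF1 arrays, and its fitted rise of 3.10 without Tet (adjusted p = 3.52e-05 by limma) is no bound. TEX15 fell by 0.93 without Tet, and TEX14 fell by 0.90 with Tet, which did not pass when the second chip was fitted by itself. With the chip as a block, 0 of the 22 rose and 2 fell with Tet, and 3 rose and 2 fell without it. PRAME, detected on all 12 arrays, passed in neither comparison.

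For the function of GALC, 17 other genes of lysosomal sphingolipid breakdown were detected on all 12 arrays. With Tet, 0 rose and 1 fell by limma, SUMF1, which activates lysosomal sulfatases (-0.54, lost with the chip as a block and without Mock Tet+ replicate 1). Without Tet, 2 rose and 2 fell: the sialidase NEU1 rose by 1.48, the sterol carrier NPC2 rose by 0.45 (lost with the chip as a block), SUMF1 fell by 1.08, and the alpha-galactosidase GLA fell by 0.54. The shares of all probes were 7.31% up and 7.21% down with Tet, and 15.2% each way without it. GALC was the only gene of the list to lose detection. On induction within the RPF1 line 2 genes of the list rose and 2 fell, where 6.2% of all probes rose and 6.52% fell. NEU1 changed by 1.15, NPC2 by 0.35, SUMF1 by -0.61 and HEXA by -0.61. The calls of NPC2, SUMF1 and HEXA were lost with the chip as a block. GALC, undetected on every RPF1 array, did not pass there.

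The closest partners of GSPT2 did not pass between the lines. GSPT1, the paralog that encodes eRF3a, was detected on all 12 arrays with means of 44267 in Mock and 39377 in RPF1, and its log2 change was -0.16 with Tet (adjusted p = 0.272 by limma) and -0.18 without it (adjusted p = 0.144). ETF1, which encodes eRF1, had means of 6301 and 6513 and did not pass. Of 15 tested genes of termination and ribosome rescue other than GSPT2, 0 passed with Tet and 2 fell without it, the recycling factor ABCE1 (-0.36) and the decay helicase UPF1 (-0.53). Both of those calls were lost with the chip as a block. Among all probes 14.5% passed with Tet, and 15.2% fell without it.

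ZNF100 had lower values in RPF1, whereas in its very large group of zinc finger genes more were called higher there than lower. Of 400 others tested by limma, 71 rose and 11 fell in RPF1 with Tet, and 147 rose and 23 fell without it, with median log2 changes of 0.13 and 0.24. Over all probes 7.31% rose and 7.21% fell with Tet, and 15.2% moved each way without it. With the chip as a block, 10 rose and 2 fell, then 46 rose and 6 fell. Of 20 tested genes of Polycomb and H3K9 chromatin silencing, 4 rose and 0 fell in RPF1 with Tet, and 2 rose and 1 fell without it. Of 14 tested imprinted genes, 2 rose and 1 fell with Tet, and 4 rose and 1 fell without it. Enzymes and readers of DNA methylation gave 1 rise and 3 falls among 12 tested genes with Tet, and the same numbers without it. DNMT3B rose by 0.39 and 0.47 and DNMT1 fell by 0.26 and 0.22, and with the chip as a block 0 of the 12 passed in either comparison.

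CD6 was set beside markers of blood and other cell types, since T cells are its usual source. CD3E and CD14 were detected on no array, and PTPRC on 6 Mock and 3 RPF1 arrays with means of 238 and 212, without passing by limma in either comparison. Of 12 such markers measured, COL1A1, LUM and VWF were detected on all 12 arrays and 4 on none. Of the 4 that could be tested, 1 rose with Tet (VWF, 0.59), and 1 rose and 1 fell without it (COL1A1 0.36, LUM -1.33). Among all probes 7.31% rose with Tet, and 15.2% moved each way without it. With the chip as a block 0 of the 4 markers passed with Tet, and 0 rose and 1 fell without it. Their part in the members' values was not tested. In bulk RNA, fewer cells expressing a member and less of its RNA in each cell cannot be told apart.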

How the data were processed

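Total RNA was hybridised to 12 Illumina bead arrays and scanned signals were handled with BeadStudio according to the submitters' processing notes, its version not given in the sources used here. A deposited file of unprocessed signals gives an intensity and a detection p-value per probe and array, per the file headers. The authors' deposited processed intensity table, on the linear scale with its method unstated, differed from a quantile normalization of the unprocessed signals by a median of 0.00626% and at most 2.11%. It supplied the values in the text and the 0.3 minimum on log2 values.

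For tests, the deposited intensity values were background-corrected with limma 3.58.1 in R 4.3.3 (normexp, background inferred from detection p-values, offset 16), quantile normalized and taken to log2. Probes with detection p under 0.05 on at least 3 arrays (14752) entered 1 fit of the 4 groups by lmFit and eBayes, with Benjamini-Hochberg adjustment over all of them and calls at 0.05. A probe undetected on all arrays of a group was given a bound from the lowest signal of a detected probe. The number of arrays limits precision. The fit was tested on simulated data.

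Members and gene lists were chosen with earlier results of these data known. All members are named; from each list up to 4 of the genes called with the largest changes, and direct paralogs or neighbours of members. The platform annotation gave 1 symbol to 19715 probes and none to 2469. Promoters and gene order come from RefSeq. After each probe's group mean was subtracted, same-numbered arrays of different groups correlated at -0.39 to 0.41. In 6 of 18 combinations the value was above 0.1, so numbers were not taken to pair arrays. The level of the transfected factor is not reported here.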

Additional observations from a re-analysis of the deposited data

Results flagged for a closer look

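Among genes of the MAGE, other cancer-testis, lysosomal sphingolipid and translation termination lists, 5 had a Tet effect that differed between the RPF1 and Mock lines by limma's test of that difference. The share of all probes that passed this test was 4.87%. On the log2 scale the RPF1 effect exceeded the Mock effect by 0.82 for SPANXN3 (adjusted p = 0.037), by 1.0 for TEX14 (adjusted p = 0.0161), by 2.7 for TKTL1 (adjusted p = 0.00363) and by 1.1 for NEU1 (adjusted p = 0.0207). TEX15 differed the other way, by -0.77 (adjusted p = 0.0426). With the chip as a block none of the 5 passed, and their adjusted p-values over all settings reached 0.239 for SPANXN3, 0.363 for TEX14, 0.256 for TEX15, 0.208 for TKTL1 and 0.135 for NEU1. Leaving out 1 array lost the call in 8 of 12 cases for SPANXN3, 9 for TEX15 and 4 for NEU1. Of the 400 zinc finger genes other than ZNF100, the RPF1 effect was the higher in 14 and the lower in 6 by the same test, and with the chip as a block in 1 and 1. No member probe differed in this way, which the rule that chose them favours.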

How the results depend on the processing

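The number of members was 12, and 20 with a detection p of 0.01 (5 shared with the 12), 7 with all 6 RPF1 arrays undetected, 4 with a log2 difference of at least 1, 21 with no minimum, 10 from unprocessed signals, and 11 to 14 leaving out 1 array. The second probe of CCDC144BP was detected on 1 array, and on 0 at 0.01. The median gap of the members was 1.23, and 0.58 in the authors' values and with no background correction, 0.86 with an offset of 50, and 1.18 to 1.33 leaving out 1 array. Members called on RPF-1 induction numbered 0, or 0 to 1 leaving out 1 array (MAGEB2, a fall, without RPF1 Tet- replicate 1).

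Counts over all probes depended strongly on the chip. For RPF1 Tet- against RPF1 Tet+ the 1877 calls became 435 with the chip as a block, 366 on the second chip, 1009 in a fit of only those arrays, and 1142 to 1788 leaving out 1 array. For the difference of the Tet effects (RPF1 minus Mock) 718 became 105, 82, and 426 to 699. For RPF1 Tet+ against Mock Tet+ 2142 became 293, 115, and 1121 to 2536. For RPF1 Tet- against Mock Tet- 4484 became 1320, 1150, and 3245 to 4614. Fewer arrays or degrees of freedom enter those fits, and the cause was otherwise not tested. Mock Tet- against Mock Tet+ gave 0 throughout. With the replicate number as a block, the difference of the Tet effects gave 459 calls, no member was called, and the numbers do not pair arrays. Detection near background in Mock limits every member other than GALC, GSPT2, MAGEB2 and the 2 unnamed probes. In RPF1, MAGEB2 and ILMN_1766925 lay close to the detection level and were each detected on 1 array.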
